A study of Mus musculus with 6 samples.

Results

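Transcripts of 31 genes for lysosomal hydrolases, lysosomal membrane proteins and the transcription factors that control them were compared in whole livers of ethanol-fed mice with and without Cd44 in myeloid cells. The genes were chosen by name, and all 31 were found by Ensembl identifier among the 54532 genes of the count table and were among the 14758 genes with enough counts to be tested. Of the 31, 5 fell in the knockout livers (Ctss, Lgmn, Laptm5, Ctsd and Tfe3), 2 rose (Lamp2 and Gaa) and 24 did not pass the test, so 22.6% passed, against 25.0% of all genes tested. The largest decreases, 2.52-fold to 2.74-fold, were those of Ctss, Lgmn and Laptm5, whereas 9 of the 10 glycosidases and lipid hydrolases did not pass.

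The knockout mice (KO) carried the genotype LysMcre/+ Cd44flox/flox, in which Cre is inserted at the myeloid lysozyme gene Lyz2 and deletes floxed Cd44, the cell-surface receptor for hyaluronan, in monocytes, macrophages and neutrophils. The littermate controls (WT) were LysM+/+ Cd44flox/flox, so they carried the same floxed alleles without Cre. All mice were on the C57BL/6J/Rj background, drank a liquid diet with 6% ethanol for 10 days, were given 5 g/kg ethanol by gavage on day 11, and their livers were taken 9 hours after the gavage. RNA of whole liver was sequenced from 3 KO and 3 WT mice, and the comparison addressed how loss of Cd44 from myeloid cells alters the ethanol-exposed liver. No group with Cre alone and no mice without ethanol were analysed here, so Cd44 loss, Cre and the altered Lyz2 allele cannot be told apart as sources of a difference. The sources used here do not give age or sex.

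Lysosomes are acidic organelles in which hydrolases break down proteins, glycans and lipids delivered by endocytosis, phagocytosis and autophagy. Proteases of this compartment, the cathepsins, differ in where they are made: cathepsin S and cathepsin K are typical of macrophages and their relatives, whereas cathepsins B, D and L are found in nearly every cell, hepatocytes included. Many lysosomal genes share a promoter element bound by TFEB and TFE3, transcription factors that enter the nucleus when the kinase complex mTORC1 is inactive. In the liver both hepatocytes and Kupffer cells, the resident macrophages, are rich in lysosomes.

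Library totals were 21521174 to 24042917 counts in KO livers and 18428224 to 23126828 counts in WT livers. Levels are given as CPM, counts relative to the library total scaled by TMM (a trimmed mean of log ratios), and means are ± SD with n = 3 livers per group. Cd44 itself was 2.11, 1.92 and 3.00 CPM in KO livers, against 32.6, 34.7 and 26.4 CPM in WT livers (edgeR quasi-likelihood test, adjusted p = 9.07e-05), and Lyz2 was 41.3, 36.9 and 66.5 CPM in KO livers, against 195, 218 and 235 CPM in WT livers (adjusted p = 0.000756). Markers shared by myeloid cells were lower with them: of 17 tested, 15 fell and 0 rose (0 at an unadjusted p under 0.05, and 0 by DESeq2 and limma-voom), with a median log2 fold change of -1.29, and their summed level was 253 to 404 CPM in KO livers and 551 to 665 CPM in WT livers. The pan-leukocyte gene Ptprc was 8.75 to 13.9 CPM in KO livers and 19.9 to 36.0 CPM in WT livers, Ctsg was at 0 in all 6 livers, and the other defining markers were detected in all. Kupffer cell markers, with Clec4f and Adgre1 among them, fell in 8 of 10 genes, and their summed level was 271 to 550 CPM in KO livers and 833 to 900 CPM in WT livers. Neutrophil markers, S100a8 among them, fell in 5 of 7 genes tested and summed to 3.16 to 8.62 CPM in KO livers and 15.5 to 30.6 CPM in WT livers. Hepatocyte markers rose in 4 of 11 genes and summed to 115396 to 158496 CPM in KO livers and 88012 to 105427 CPM in WT livers, with Alb at 72290 to 96424 CPM in KO livers and 52636 to 60229 CPM in WT livers (adjusted p = 0.131). In whole tissue, fewer cells of a type and less RNA per cell cannot be told apart, and the part of these shifts in the results below was not tested.

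Across all genes, 25.0% passed at an adjusted p under 0.05, 13.1% lower and 11.9% higher in KO livers. The 7 lysosomal genes that passed were 22.6% of the 31, so the share was near that of all genes. At an unadjusted p under 0.05, 9 of the 31 were lower and 6 higher, and DESeq2 called 6 lower and 3 higher, limma-voom 7 lower and 3 higher. The median log2 fold change of the 31 genes was -0.10, against -0.01 over all genes, and single genes ran from -1.45 to 0.62. Every KO liver lay below every WT liver in 8 of the 31 genes and above in 6, while over all genes the groups were apart in 43.8% (22.4% lower and 21.4% higher). Scaling by library totals instead of TMM moved the split of the 31 genes to 12 lower and 0 higher and that of all genes to 3698 lower and 904 higher, against 1933 lower and 1751 higher with TMM. That scaling moved the median of all genes to -0.26 and the median of the 31 genes to -0.35. As a share of library totals, without TMM, the 31 genes together took 0.663% to 0.832% in KO livers and 0.926% to 0.989% in WT livers. With TMM their summed level was 7915, 7659 and 8822 CPM in KO livers, against 8604, 8805 and 8700 CPM in WT livers. These sums overlapped, and KO 3 was above every WT liver.

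**Figure D1:**
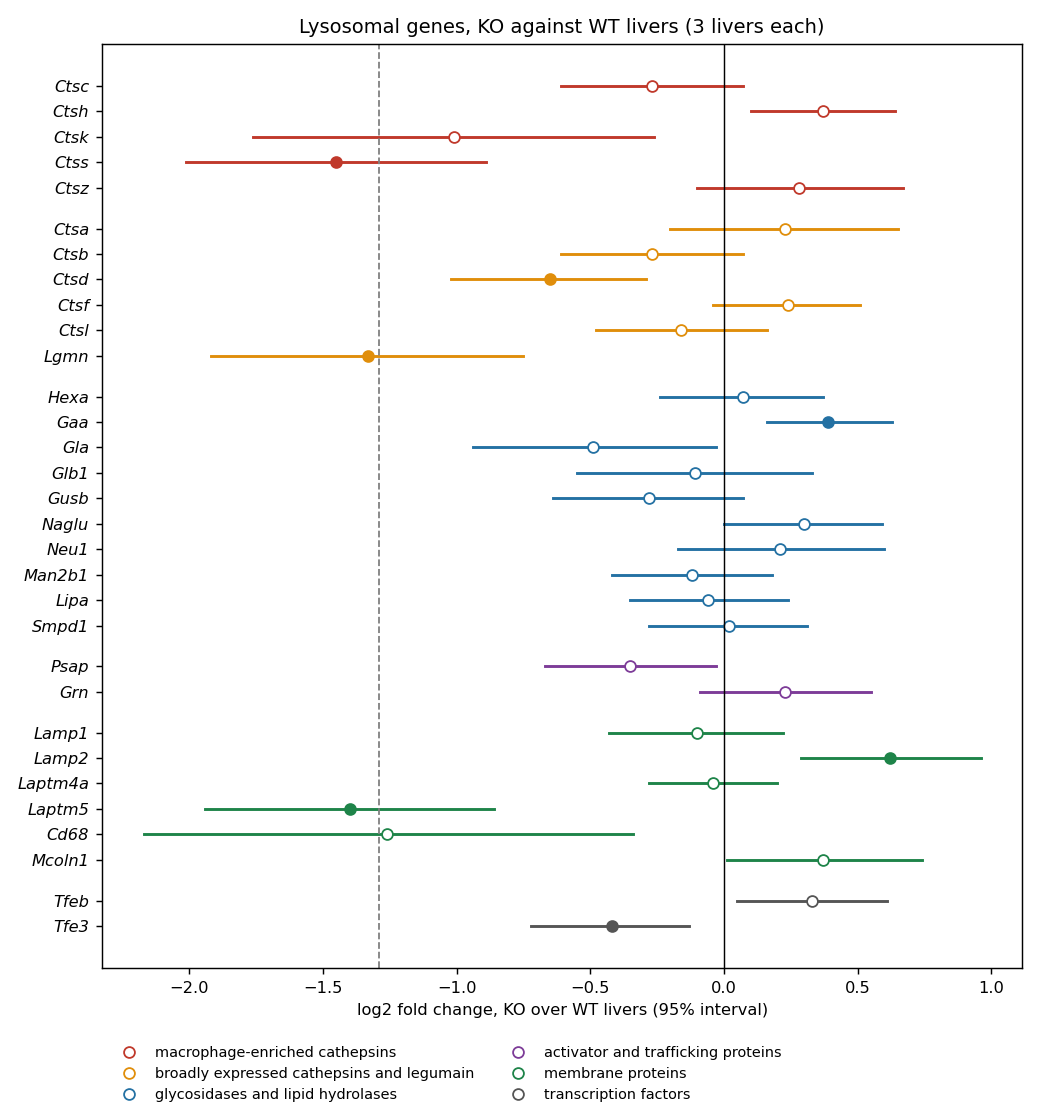
Log2 fold change, KO over WT livers, of each of the 31 lysosomal genes with its 95% interval (x axis), grouped by role (y axis); filled points passed at an adjusted p under 0.05, open points did not, and the dashed line is the median of the shared myeloid markers, -1.29. Ctss, Laptm5, Lgmn and Cd68 stand furthest to the left, from -1.45 to -1.26, and Lamp2 at 0.62 stands furthest to the right.

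Promoter sequences were read for the genes on which the comparison turns, with the letters CACGTG, the E-box core of the element bound by TFEB and TFE3, in capitals. Each run covers 150 bases before and 10 bases after a start site, 5′ to 3′ on the gene's strand, from RefSeq on GRCm38.p6. In Ctss the capitals instead mark ACTTCCTC, the reverse complement of GAGGAAGT, a form of the element bound by the myeloid factor PU.1, which was searched only after the values had been seen. Laptm5 has no exact match to CACGTG, ACTTCCTC or GAGGAAGT in the stretch shown. It does hold cttcctc, which is ACTTCCTC without its first letter, and shorter or looser forms were not searched. For Lgmn the start site shown is the one whose window held a match.
Ctss (chr3:95526636-95526795, plus strand): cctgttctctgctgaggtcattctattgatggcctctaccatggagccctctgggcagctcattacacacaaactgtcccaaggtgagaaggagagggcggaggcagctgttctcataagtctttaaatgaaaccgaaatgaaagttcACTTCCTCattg
Laptm5 (chr4:130913166-130913325, plus strand): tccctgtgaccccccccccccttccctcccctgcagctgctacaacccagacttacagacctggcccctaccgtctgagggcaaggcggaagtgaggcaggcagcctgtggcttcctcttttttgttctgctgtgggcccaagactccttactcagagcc
Lgmn (chr12:102439083-102439242, minus strand): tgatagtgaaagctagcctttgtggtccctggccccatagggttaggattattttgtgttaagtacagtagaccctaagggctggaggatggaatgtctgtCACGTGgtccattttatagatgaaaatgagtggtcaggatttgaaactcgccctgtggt
Ctsd (chr7:142387818-142387977, minus strand): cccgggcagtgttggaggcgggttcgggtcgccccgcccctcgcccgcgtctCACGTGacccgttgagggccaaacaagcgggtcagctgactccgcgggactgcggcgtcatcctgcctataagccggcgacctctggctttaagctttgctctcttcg
Gaa (chr11:119267813-119267972, plus strand): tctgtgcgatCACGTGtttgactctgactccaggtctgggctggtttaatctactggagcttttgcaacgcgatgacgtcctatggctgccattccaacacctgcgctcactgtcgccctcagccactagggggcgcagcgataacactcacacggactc
Lamp1 (chr8:13159011-13159170, plus strand): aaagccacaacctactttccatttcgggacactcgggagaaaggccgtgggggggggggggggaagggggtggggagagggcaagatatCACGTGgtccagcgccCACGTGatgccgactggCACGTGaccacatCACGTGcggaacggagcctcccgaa
Mcoln1 (chr8:3500369-3500528, plus strand): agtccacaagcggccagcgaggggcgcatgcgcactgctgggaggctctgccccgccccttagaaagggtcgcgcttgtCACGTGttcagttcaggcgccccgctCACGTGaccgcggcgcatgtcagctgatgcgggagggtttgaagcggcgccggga

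Windows of 250 bases before to 50 bases after the start were in the table for 29 of the 31 genes, all but Ctsb and Ctsh. CACGTG, which reads the same on both strands, was present in 11 of the 29 (37.9%), against 8.09% of 27025 genes. Its carriers were Ctsa, Ctsd, Ctsf, Ctsl, Lgmn, Gaa, Gla, Glb1, Naglu, Lamp1 and Mcoln1. The longer palindrome TCACGTGA, which contains CACGTG, was present in Ctsa, Ctsd, Gla and Mcoln1 (13.8% of the 29, against 1.12% of all genes). Lamp1 held 4 copies of CACGTG, beginning 61, 45, 28 and 15 bases before its start, and Mcoln1 held 2, at 71 and 45 bases. GAGGAAGT, on either strand, was present in Ctsc, Ctss, Gla and Gusb (13.8% of the 29, against 3.69% of all genes), and in Ctss it begins 2 bases before the start. Genes that passed were found with and without CACGTG: of the 11 with it, 2 fell and 1 rose, with a median log2 fold change of -0.10, and of the 18 without it, 3 fell and 1 rose, with a median of -0.09. A match describes the letters of the window and does not show binding.

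Among the 5 macrophage-enriched cathepsins, 1 fell and 0 rose by the edgeR test (1 higher at an unadjusted p under 0.05, and 1 by DESeq2 and by limma-voom), with a median log2 fold change of -0.27. Ctss encodes cathepsin S, the cysteine protease that antigen-presenting cells use to cut the invariant chain from MHC class II. Ctss (ENSMUSG00000038642, chr3:95526786-95556403, plus strand) was 49.5, 28.7 and 60.9 CPM in KO livers, against 142, 121 and 118 CPM in WT livers. All KO livers were far below all WT livers, and KO 2 was the lowest. The fall was 2.74-fold (log2 -1.45, SE 0.25, 95% interval -2.01 to -0.89, edgeR adjusted p = 0.00478).

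Ctsk, encoding the collagen-degrading cathepsin K best known from osteoclasts, lies 17.4 kb before Ctss on the same strand (chr3:95499256-95509362). It was rare, at 1.01, 2.07 and 1.18 CPM in KO livers, against 2.30, 3.24 and 3.08 CPM in WT livers. The groups did not overlap, but KO 2 came close to WT 1, and the difference narrowly missed the threshold (log2 -1.01, SE 0.33, edgeR adjusted p = 0.0541). It passed in 7 of 14 alternatives, among them DESeq2 (adjusted p = 0.0414), limma-voom (0.0435), no filter on low counts (0.0356) and leaving out KO 2 (log2 -1.38, 0.0182), with adjusted p from 0.0167 to 0.163 over the 14.

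The other macrophage-enriched cathepsins lay nearer to the WT level than Ctss or above it, and none of them passed by edgeR. Ctsc encodes the dipeptidyl peptidase that activates the serine proteases of neutrophil granules, and was 114, 142 and 135 CPM in KO livers, against 187, 140 and 145 CPM in WT livers (log2 -0.27, 95% interval -0.61 to 0.07, edgeR adjusted p = 0.22). Apart from the high value of WT 1, the groups overlapped. Ctsh, encoding an aminopeptidase, was 233, 236 and 274 CPM in KO livers, against 178, 195 and 200 CPM in WT livers. Every KO liver was above every WT liver, with log2 0.37 (95% interval 0.10 to 0.64) and an edgeR adjusted p of 0.0523, and DESeq2 gave an adjusted p of 0.0293. Ctsz, encoding the carboxypeptidase cathepsin Z, was 393, 325 and 497 CPM in KO livers, against 300, 348 and 348 CPM in WT livers (log2 0.28, 95% interval -0.10 to 0.67, edgeR adjusted p = 0.256). KO 2 lay among the WT livers and the other KO livers above them.

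Broadly expressed cathepsins and legumain numbered 6, of which 2 fell and 0 rose (0 at an unadjusted p under 0.05, and 0 by DESeq2 and limma-voom), with a median log2 fold change of -0.22. Lgmn encodes legumain, the asparaginyl endopeptidase that cuts cathepsin precursors into their mature chains. Lgmn (ENSMUSG00000021190, chr12:102394084-102439813, minus strand) was 85.2, 56.1 and 124 CPM in KO livers, against 247, 211 and 211 CPM in WT livers. The KO livers were lower without overlap and again lowest in KO 2. The fall was 2.52-fold (log2 -1.33, SE 0.26, 95% interval -1.92 to -0.75, edgeR adjusted p = 0.00775).

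Ctsd encodes cathepsin D, the main aspartic protease of lysosomes. Ctsd (ENSMUSG00000007891, chr7:142375911-142388038, minus strand) was 247, 234 and 337 CPM in KO livers, against 407, 426 and 452 CPM in WT livers. The groups were apart, with KO 3 nearest the WT livers. It fell 1.57-fold (log2 -0.65, SE 0.16, 95% interval -1.02 to -0.29, edgeR adjusted p = 0.0201), and the call was lost without KO 1 (adjusted p = 0.0838), KO 2 (0.0541), WT 2 (0.0602) or WT 3 (0.0666). The annotation places another gene, Gm49369, over 34.4% of the exon bases of Ctsd on the same strand, and that gene had 0 counts in all livers.

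The remaining proteases of this group lay closer to the WT level. The cysteine protease gene Ctsb was 865, 756 and 998 CPM in KO livers, against 990, 1108 and 1057 CPM in WT livers (log2 -0.27, edgeR adjusted p = 0.217), and KO 3 overlapped the WT livers. Ctsl, encoding another cysteine protease, averaged 1475 ± 99.1 CPM in KO livers and 1650 ± 132 CPM in WT livers (log2 -0.16, edgeR adjusted p = 0.433). Ctsa, encoding the carboxypeptidase that protects beta-galactosidase and neuraminidase, averaged 217 ± 56.7 CPM in KO livers and 185 ± 9.31 CPM in WT livers (log2 0.23, edgeR adjusted p = 0.41). Spread was wide in the KO livers for Ctsa, from 159 CPM in KO 2 to 273 CPM in KO 3. The cysteine protease gene Ctsf averaged 37.3 ± 3.93 CPM in KO livers and 31.7 ± 2.32 CPM in WT livers (log2 0.24, edgeR adjusted p = 0.193). Exons of Ctsb, Ctsa and Ctsl overlap genes on the opposite strand over 12.8%, 10.5% and 26.8% of their bases, in Fdft1, Pltp and Gm47123, and without a stated strand setting their levels are uncertain to that extent. Gm47123 had 0 counts in all livers, whereas Pltp fell (log2 -0.93, edgeR adjusted p = 0.004) and Fdft1 rose (log2 0.59, adjusted p = 0.0392).

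**Figure D2:**
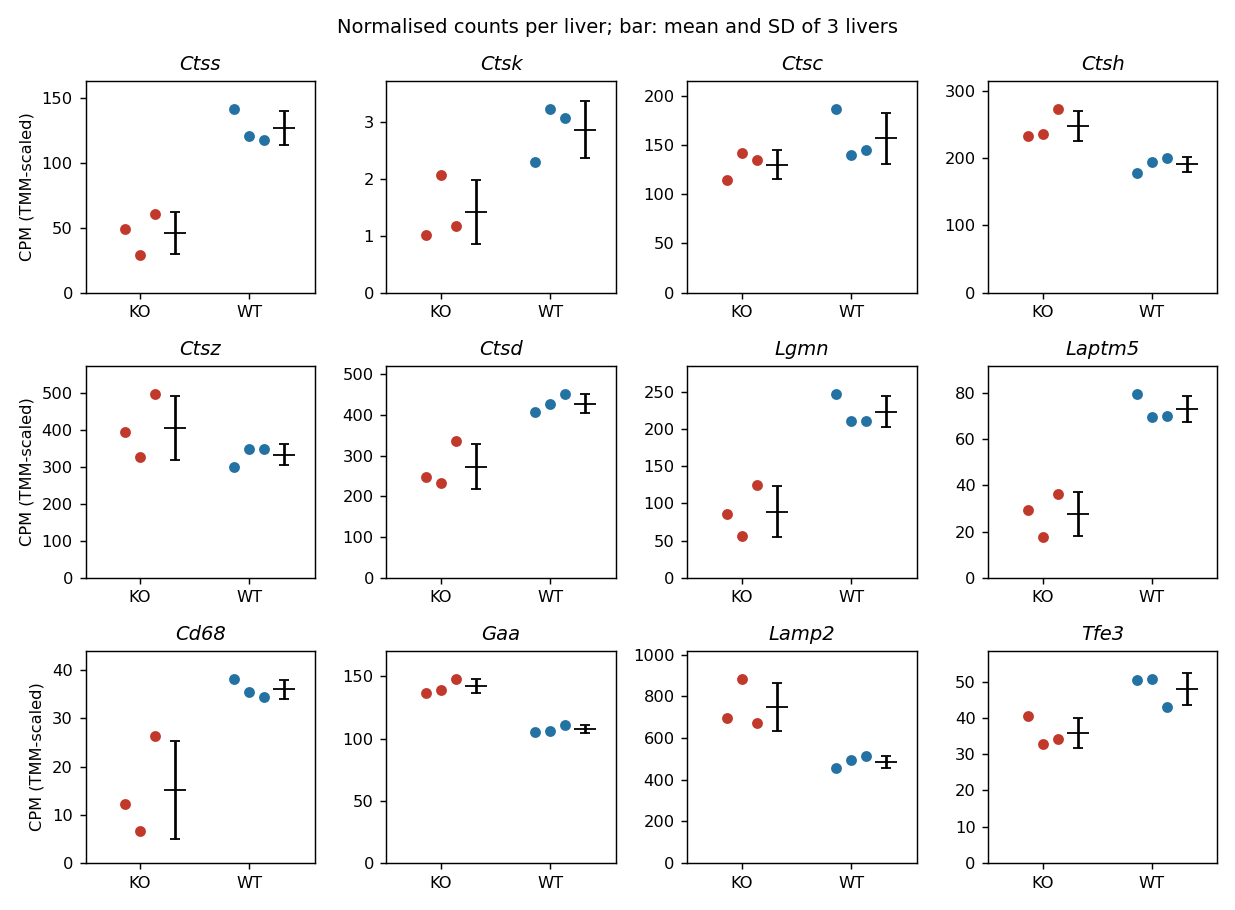
Normalised counts (CPM, TMM-scaled, y axis from 0) of 12 lysosomal genes in each liver, KO left and WT right, 1 point per liver, with the mean and SD of 3 livers as a bar. Ctss, Lgmn and Laptm5 are lower in all KO livers and lowest in KO 2, the middle point, while Gaa and Lamp2 are higher in all KO livers.

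The rule behind the gene set sets macrophage-enriched cathepsins against general lysosomal enzymes. With Ctsc, Ctsh, Ctsk, Ctss and Ctsz as the macrophage-enriched group and 16 hydrolases as the general group, the macrophage-enriched median log2 fold change was -0.27 and the general median -0.08. Of the 16 general enzymes, 2 fell (Lgmn and Ctsd), 1 rose (Gaa) and 13 did not pass. The mean log2 CPM of the macrophage-enriched group minus that of the general group was -0.92, -0.73 and -0.91 in KO livers, against -0.51, -0.57 and -0.58 in WT livers. The KO livers were lower by 0.30 on average, with SD 0.11 in KO and 0.04 in WT livers, and the groups did not overlap. That difference rests on how the groups are drawn: with Ctss, Ctsk and Ctsc alone it was -0.85, and with Ctsb and Ctsd added to the 5 it was -0.36. The first moved Ctsh (log2 0.37) and Ctsz (0.28) to the general group, and the second took Ctsb (-0.27) and Ctsd (-0.65) from it. Each gene weighs the same in these means, the rare Ctsk included. No alternative left out Ctss or Ctsk or moved Lgmn, so whether the difference holds without Ctss and Ctsk was not tested. Relative to the mean log2 CPM of the shared myeloid markers, KO minus WT livers was 0.93 for Ctsc, 1.57 for Ctsh and 1.46 for Ctsz. That places them well above the markers, whereas Lgmn, in the general group, was near them at -0.20, as Ctss (-0.32) and Ctsk (0.18) were. No test was made over these lists, since their members were chosen with results known.

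Seen as a composition, cathepsin S lost share among the cathepsins. Levels per exon length (TPM), which allow genes to be set side by side, were summed over the 10 cathepsins, to 2207, 1751 and 2552 TPM in KO livers and 2832, 3065 and 2809 TPM in WT livers. TPM was not scaled by TMM, whose factors were 0.8653 to 0.9436 in KO livers and 1.0648 to 1.1236 in WT livers. TPM therefore serves here to compare genes within a liver, and its levels are not a measure of KO against WT. Ctss made up 3.94%, 2.63% and 4.17% of that sum in KO livers, against 10.2%, 8.22% and 8.29% in WT livers. Ctsd made up 11.4%, 12.4% and 13.3% in KO livers, against 16.9%, 16.7% and 18.4% in WT livers. Both shares were lower in every KO liver than in any WT liver. Ctsz made up 29.5%, 28.0% and 32.1% in KO livers, against 20.3%, 22.3% and 23.1% in WT livers, and Ctsh 5.59%, 6.53% and 5.66% in KO livers, against 3.87%, 4.01% and 4.25% in WT livers. These shares were higher in every KO liver, whereas the share of Ctsl overlapped, at 21.0% to 26.5% in KO livers and 22.3% to 25.4% in WT livers. The shares of a liver add up to the whole, so they are not independent of each other. In TPM the saposin precursor Psap stood highest of the 31 genes in both groups, at 696 ± 108 TPM in KO livers and 1058 ± 17.7 TPM in WT livers, although in KO livers Lamp1, at 666 ± 121 TPM, and Ctsz, at 653 ± 164 TPM, lay within its spread. Ctsk was lowest in KO livers at 2.14 ± 0.737 TPM, and in WT livers Ctsk at 5.25 ± 0.945 TPM and Tfeb at 4.69 ± 0.148 TPM were lowest and within their spread.

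Most glycosidases and lipid hydrolases did not pass: of 10, 0 fell (1 lower at an unadjusted p under 0.05, 0 by DESeq2 and limma-voom) and 1 rose, with a median log2 fold change of -0.02. Gaa encodes acid alpha-glucosidase, which frees glucose from glycogen in lysosomes. Gaa (ENSMUSG00000025579, chr11:119267887-119285454, plus strand) was 137, 139 and 148 CPM in KO livers, against 105, 106 and 111 CPM in WT livers. The livers of each group were tightly bunched and the groups well apart. It rose 1.31-fold (log2 0.39, SE 0.10, 95% interval 0.16 to 0.63, edgeR adjusted p = 0.0237). Scaling by library totals reduced this to log2 0.14 (adjusted p = 0.356), and the call was also lost with no filter on low counts (0.0506) and without KO 1 (0.0649), KO 3 (0.0524), WT 1 (0.0559) or WT 2 (0.0731).

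Glycan-degrading enzymes otherwise showed small differences in both directions. Gla, encoding alpha-galactosidase A, was 8.0, 6.83 and 10.1 CPM in KO livers, against 9.8, 14 and 11.2 CPM in WT livers (log2 -0.49, 95% interval -0.94 to -0.03, edgeR adjusted p = 0.108), with KO 3 inside the WT range. Naglu, which encodes an enzyme of heparan sulfate breakdown, was 50.2, 46.0 and 61.4 CPM in KO livers, against 43.5, 42.3 and 42.4 CPM in WT livers (log2 0.30, edgeR adjusted p = 0.129). Here the groups were apart and the KO livers the more variable. Gusb, encoding beta-glucuronidase, had log2 -0.28 (edgeR adjusted p = 0.222), and Neu1, encoding the lysosomal sialidase, log2 0.21 (adjusted p = 0.395). Hexa, encoding the alpha subunit of beta-hexosaminidase, Glb1, encoding beta-galactosidase, and Man2b1, encoding alpha-mannosidase, had log2 values of 0.07, -0.11 and -0.12 (adjusted p = 0.753, 0.717 and 0.553). The groups overlapped in Gusb, Neu1, Hexa, Glb1 and Man2b1 alike.

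Enzymes of lipid breakdown lay at the WT level within their error. Lipa, encoding the acid lipase that splits cholesteryl esters and triglycerides, averaged 272 ± 31.8 CPM in KO livers and 283 ± 18.3 CPM in WT livers (log2 -0.06, 95% interval -0.35 to 0.24, edgeR adjusted p = 0.785). Smpd1, encoding acid sphingomyelinase, averaged 57.4 ± 2.25 CPM in KO livers and 56.8 ± 8.35 CPM in WT livers (log2 0.02, 95% interval -0.28 to 0.31, edgeR adjusted p = 0.947). The livers of both groups overlapped in each gene.

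Psap and Grn encode secreted proteins that also reach lysosomes, where prosaposin yields the saposin activators of sphingolipid breakdown and progranulin supports hydrolase function. Neither passed by edgeR: at an unadjusted p under 0.05, 1 was lower and 0 higher, and DESeq2 and limma-voom called 0. Psap was 762, 768 and 944 CPM in KO livers, against 1070, 1017 and 1071 CPM in WT livers (log2 -0.35, 95% interval -0.67 to -0.03, edgeR adjusted p = 0.1). Grn was 596, 777 and 628 CPM in KO livers, against 555, 558 and 595 CPM in WT livers (log2 0.23, 95% interval -0.09 to 0.55, edgeR adjusted p = 0.273). The groups were apart in opposite directions, with KO 3 near the WT livers for Psap and KO 1 just above them for Grn.

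Membrane proteins held the largest rise among the 31 genes, that of Lamp2, and in Laptm5 a fall close in size to that of Ctss. Of 6 genes, 1 fell and 1 rose, with a median log2 fold change of -0.07. Laptm5 encodes a lysosomal membrane protein of blood-derived cells that lowers antigen receptor levels in lymphocytes. Laptm5 (ENSMUSG00000028581, chr4:130913125-130936141, plus strand) was 29.4, 17.5 and 36.4 CPM in KO livers, against 79.7, 69.8 and 70.2 CPM in WT livers. No liver overlapped, and KO 2 was the lowest. The fall was 2.64-fold (log2 -1.40, SE 0.24, 95% interval -1.94 to -0.86, edgeR adjusted p = 0.00469). Its broadly expressed relative Laptm4a was 213, 212 and 228 CPM in KO livers, against 213, 231 and 227 CPM in WT livers (log2 -0.04, 95% interval -0.28 to 0.20, edgeR adjusted p = 0.822), and the groups overlapped fully.

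Cd68 encodes macrosialin, a LAMP-family glycoprotein used as a macrophage marker. Cd68 (chr11:69664213-69666153, minus strand) was 12.3, 6.63 and 26.4 CPM in KO livers, against 38.2, 35.4 and 34.4 CPM in WT livers. All KO livers were lower, but KO 3 was far above KO 2, and the difference did not pass (log2 -1.26, SE 0.40, 95% interval -2.17 to -0.34, edgeR adjusted p = 0.0514). Leaving out KO 3 gave log2 -1.93 and an adjusted p of 0.00324, and over the 14 alternatives the adjusted p ran from 0.00183 to 0.152.

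Lamp1 and Lamp2 encode the abundant glycoproteins that line the lysosomal membrane, and a splice form of Lamp2 is the receptor of chaperone-mediated autophagy. Lamp2 (ENSMUSG00000016534, chrX:38401357-38456454, minus strand) was 696, 884 and 673 CPM in KO livers, against 456, 493 and 513 CPM in WT livers. Each KO liver was above each WT liver, and KO 2, lowest for Ctss, Lgmn, Laptm5 and Cd68, was the highest. It rose 1.54-fold (log2 0.62, SE 0.15, 95% interval 0.29 to 0.96, edgeR adjusted p = 0.0173). The call was lost without WT 2 (adjusted p = 0.0522) and with scaling by library totals (log2 0.36, adjusted p = 0.0654), and counts per gene do not tell the splice forms apart. Lamp1 was 738, 674 and 890 CPM in KO livers, against 823, 805 and 845 CPM in WT livers, and the WT livers lay within the KO range (log2 -0.10, 95% interval -0.43 to 0.22, edgeR adjusted p = 0.638).

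Mcoln1, encoding the calcium-releasing channel TRPML1, was 43.4, 31 and 46.6 CPM in KO livers, against 32, 28.7 and 32.7 CPM in WT livers. KO 2 lay among the WT livers and the other KO livers above them (log2 0.37, 95% interval 0.01 to 0.74, edgeR adjusted p = 0.123). Without KO 2 the difference passed (log2 0.54, adjusted p = 0.019).

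Of the transcription factor genes, 1 was lower and 0 higher by edgeR (1 higher at an unadjusted p under 0.05, 0 by DESeq2 and limma-voom). Tfe3 (ENSMUSG00000000134) was 40.6, 32.7 and 34.1 CPM in KO livers, against 50.5, 50.8 and 43.0 CPM in WT livers. KO 1 came close to WT 3, without overlap. It fell 1.34-fold (log2 -0.42, SE 0.13, 95% interval -0.72 to -0.13, edgeR adjusted p = 0.0422), close to the threshold, and the call was lost when KO 2 (adjusted p = 0.11), KO 3 (0.102), WT 1 (0.119), WT 2 (0.144) or WT 3 (0.0554) was left out, and with no filter on low counts (0.053). Tfeb was 11.8, 12.2 and 12.3 CPM in KO livers, against 9.80, 9.56 and 9.56 CPM in WT livers, with very little spread in either group (log2 0.33, SE 0.12, edgeR adjusted p = 0.0803). Transcript levels of these factors do not show how much of the protein is in the nucleus.

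Livers of the KO group differed from each other in a repeated order. Of the 31 genes, 18 (58.1%) were highest in KO 3, then KO 1, then KO 2, against 23.4% of all genes tested. The mean log2 CPM of the 17 shared myeloid markers had the same order, at 3.33, 2.98 and 3.69 in KO 1, KO 2 and KO 3, against 4.77, 4.38 and 4.44 in WT livers. Summed hepatocyte markers ran the other way, at 130175, 158496 and 115396 CPM in KO 1, KO 2 and KO 3. In all, 23 of the 31 genes were highest of the KO livers in KO 3 and 20 were lowest in KO 2, against 37.3% of all genes tested for either. Both counts include Naglu, which was higher in every KO liver than in any WT liver, and the first also includes Gaa. With 3 livers no relation between them was tested.

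**Figure D3:**
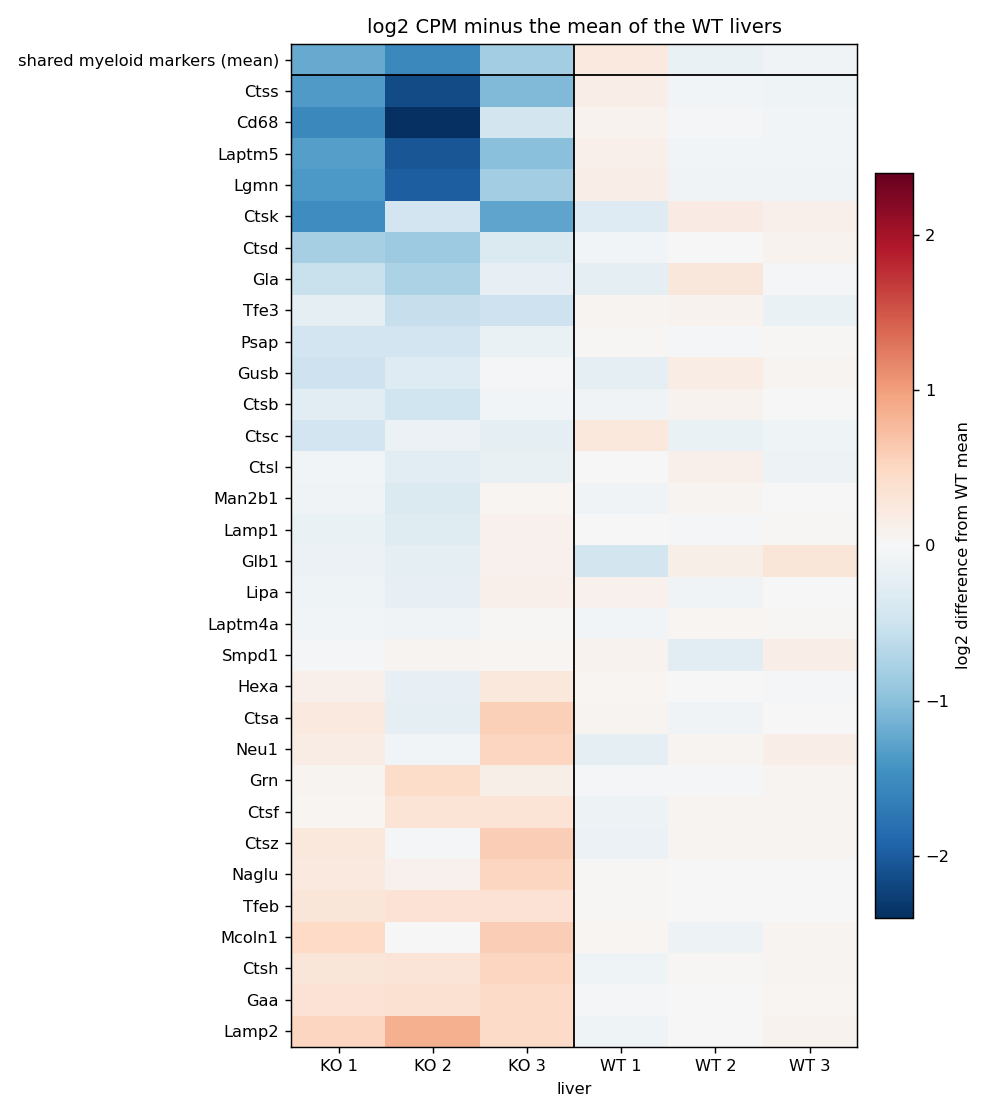
Log2 CPM of each lysosomal gene minus its mean in WT livers, 1 column per liver with KO left and WT right; rows are sorted by their mean difference, lowest at the top, below a row for the mean of 17 shared myeloid markers. The 4 rows of Ctss, Cd68, Laptm5 and Lgmn are below the WT mean in all KO livers, as the marker row is, and darkest in KO 2. In KO 2 all 4 are further down than the markers, Cd68 the furthest, and in KO 3 Cd68 is less far down than the markers. Rows at the bottom such as Gaa and Lamp2 lie above the WT mean.

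Each gene was also expressed relative to the mean of the shared myeloid markers in the same liver. On that log2 scale the KO livers minus the WT livers were -0.32 for Ctss, -0.27 for Cd68, -0.26 for Laptm5, -0.20 for Lgmn and 0.18 for Ctsk, so on average these 5 genes differed by about as much as the markers. Ctss was 2.30, 1.87 and 2.24 in KO livers, against 2.38, 2.54 and 2.44 in WT livers, so every KO liver was lower. Cd68 ran from -0.23 to 1.04 and Ctsk from -3.34 to -1.87 in KO livers, and these and Lgmn overlapped the WT livers. For Laptm5, KO 1 and WT 1 were both at 1.55. For the other 26 genes the value ran from 0.53 for Ctsd to 1.81 for Lamp2, which places them well above the markers. Spi1, which encodes PU.1 and is among the markers, was 8.29, 7.93 and 15.0 CPM in KO livers, against 28.8, 25.3 and 26.9 CPM in WT livers (log2 -1.37, edgeR adjusted p = 0.00499). The part of the lower myeloid markers in the lower Ctss, Lgmn and Laptm5 and in the values of Cd68 was not tested.

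Beyond the 31 genes, 138 further genes of lysosome-related pathways were taken in 7 lists, and 130 were tested. Of these 12 fell and 17 rose (22.3%, against 25.0% of all genes), with a median log2 fold change of 0.00, and 15 of the 29 were called in every comparison that left out 1 liver. The other 14 lost their call in at least 1, with adjusted p up to 0.121. Scaling by library totals changed the split to 30 lower and 3 higher, so most of the increases named below did not pass with that scaling.

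Among 32 other hydrolases, 4 fell and 3 rose. Manba, encoding beta-mannosidase, fell by 0.77 on the log2 scale (21.0 ± 2.23 CPM in KO livers and 35.8 ± 3.51 CPM in WT livers, edgeR adjusted p = 0.00447). Prcp, a prolylcarboxypeptidase gene, fell by 0.59, and the low-abundance Galns and Ctse fell too, whereas Ctso, encoding cathepsin O (log2 0.52, edgeR adjusted p = 0.0108), Plbd1 and Gnpda1 rose. Gnpda1 was in the list although it encodes a cytosolic enzyme of amino sugar metabolism. Calls of Galns, Ctse, Plbd1 and Gnpda1 were lost in at least 1 comparison that left out a liver, for Galns without KO 1, KO 2, WT 2 or WT 3, for Ctse when any liver except KO 3 was left out, for Plbd1 without WT 2 or WT 3, and for Gnpda1 without WT 1 or WT 3 (adjusted p 0.0528 to 0.117).

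Of 21 further membrane proteins and transporters, 3 fell and 4 rose. Cd63, encoding a tetraspanin of late endosomes, averaged 25.9 ± 13.9 CPM in KO livers and 118 ± 11.4 CPM in WT livers (log2 -2.18, edgeR adjusted p = 0.00343). Slc15a3, a histidine and peptide transporter gene of immune cells, averaged 11.6 ± 4.25 CPM in KO livers and 32.3 ± 2.02 CPM in WT livers (log2 -1.48, edgeR adjusted p = 0.00415). Both were lower in every KO liver than in any WT liver, as Ctss was. Npc1, encoding the lysosomal cholesterol exporter, rose (268 ± 26.3 CPM in KO livers and 176 ± 14.5 CPM in WT livers, log2 0.60, edgeR adjusted p = 0.0109), as did Slc17a5, Tpcn1 and Ctns, and the channel gene Tpcn2 fell by 0.87 on the log2 scale. Tpcn2 lost its call without WT 2 (adjusted p = 0.0554), Slc17a5 without KO 2, WT 1 or WT 3, Tpcn1 without WT 1 or WT 2, and Ctns when any liver except KO 2 was left out (adjusted p 0.053 to 0.114). Of 17 subunits of the proton pump V-ATPase, 0 passed (2 lower and 1 higher at an unadjusted p under 0.05, 0 by DESeq2 and limma-voom), and those with the smallest p were Atp6v0e (log2 -0.35, edgeR adjusted p = 0.0622) and Atp6v0a1 (log2 0.38, adjusted p = 0.064).

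Cathepsins are held in check by cystatins and serpins outside the lysosome. Of 10 inhibitor genes listed, 4 were tested and 4 were at 0 in all livers (Stfa1, Stfa2, Stfa3 and BC100530). Of the 4 tested, 2 fell, 1 rose and 1 did not pass (75.0% called, against 25.0% of all genes). Serpinb6a, a cytosolic serpin gene, averaged 19.7 ± 3.14 CPM in KO livers and 73.0 ± 7.08 CPM in WT livers (log2 -1.89, edgeR adjusted p = 0.000284). Cstb, encoding the cytosolic cysteine protease inhibitor stefin B, averaged 51.5 ± 21.2 CPM in KO livers and 134 ± 22.7 CPM in WT livers (log2 -1.38, edgeR adjusted p = 0.00859). Both fell, whereas the rare Serpinb1a, encoding an inhibitor of neutrophil serine proteases, rose to 1.86 ± 0.839 CPM in KO livers, against 0.361 ± 0.0906 CPM in WT livers (log2 2.34, edgeR adjusted p = 0.00898).

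Hydrolases reach the lysosome by a mannose 6-phosphate tag, and of 10 genes of tagging and sorting 1 fell and 1 rose. The receptor gene Igf2r averaged 81.9 ± 8.01 CPM in KO livers and 140 ± 15.7 CPM in WT livers (log2 -0.78, edgeR adjusted p = 0.00458). The sorting adaptor gene Gga2 rose by log2 0.70 (edgeR adjusted p = 0.0347) but lost its call without KO 1, KO 3, WT 2 or WT 3 (0.0683 to 0.0884). Among 21 genes of the TFEB family and its control by mTORC1, 2 fell and 2 rose. Tfec, the family member typical of macrophages, averaged 2.18 ± 0.399 CPM in KO livers and 5.48 ± 1.49 CPM in WT livers (log2 -1.32, edgeR adjusted p = 0.00978), and its relative Mitf fell by 0.69 on the log2 scale. Fnip2 and Flcn, which encode partners that relay amino acid supply to TFEB and TFE3, rose, Fnip2 to 59.5 ± 14.8 CPM in KO livers, against 28.4 ± 4.79 CPM in WT livers (log2 1.07, edgeR adjusted p = 0.00752). The Mitf call was lost when any liver except KO 1 was left out, and the Flcn call when any liver except KO 2 was left out (adjusted p 0.0631 to 0.121).

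Of 25 autophagy genes, 0 fell by edgeR (1 lower at an unadjusted p under 0.05, 0 by DESeq2 and limma-voom) and 6 rose (24% called, against 25.0% of all genes, 13.1% lower and 11.9% higher), and the median log2 fold change was -0.03. Gabarapl1, encoding a ubiquitin-like protein of autophagosome membranes, averaged 400 ± 27.6 CPM in KO livers and 210 ± 26.9 CPM in WT livers (log2 0.93, edgeR adjusted p = 0.00277). Atg5 and Atg7, encoding parts of the conjugation machinery, rose by log2 0.55 and 0.65 (edgeR adjusted p = 0.00696 and 0.0101). These calls held without any single liver. Over all 14 alternatives Gabarapl1 passed in 14, and Atg5 and Atg7 in 13 each (adjusted p up to 0.0679 and 0.0801). The call of the receptor gene Optn was lost without KO 3 or WT 2 (adjusted p = 0.0502 and 0.0727), and those of Ulk2 and Atg16l1 in each comparison that left out a liver (0.052 to 0.112). Summed hepatocyte markers were higher in KO livers as well (115396 to 158496 CPM, against 88012 to 105427 CPM in WT livers), and their part in these increases was not tested.

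**Figure D4:**
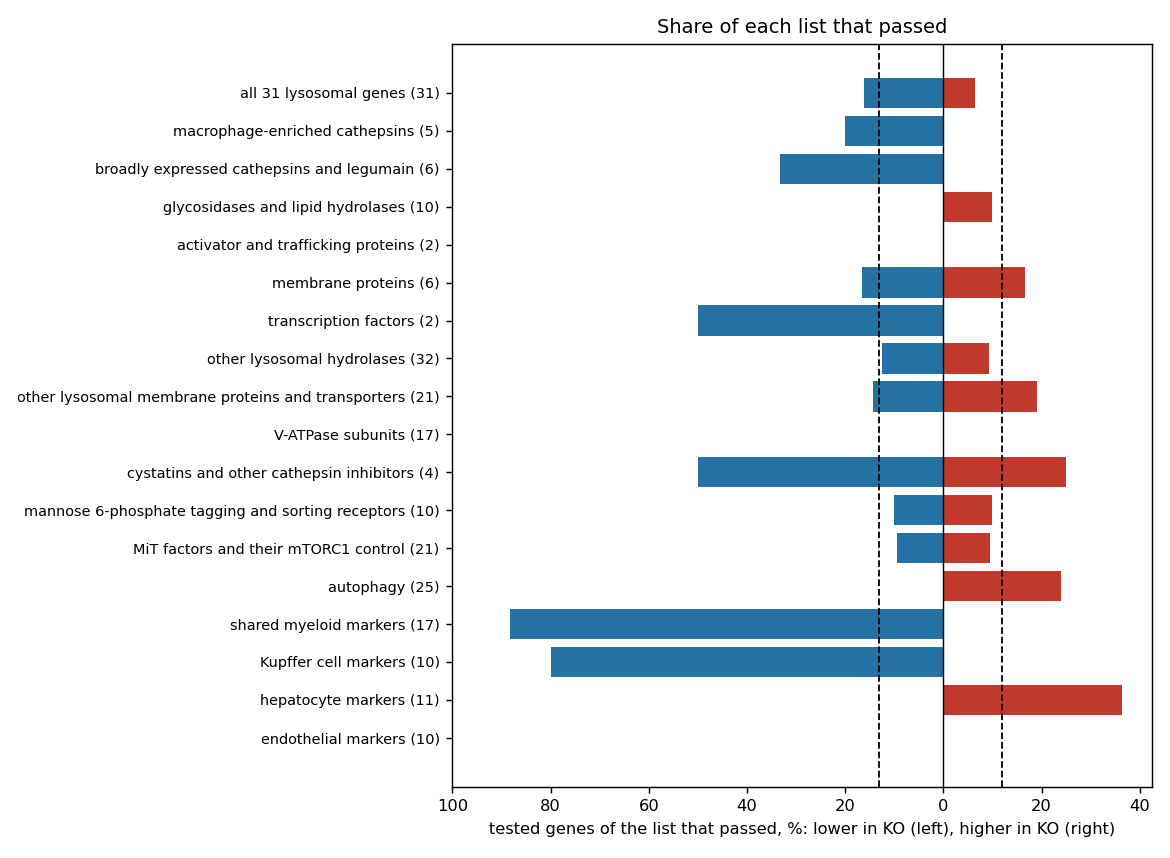
Percentage of the tested genes of each list that passed, lower in KO to the left and higher in KO to the right, with the number of genes tested in brackets; dashed lines mark all genes tested, 13.1% lower and 11.9% higher. Of the shared myeloid markers 88.2% fell, while the 31 lysosomal genes and the related pathway lists with 10 or more tested genes stay far below that share. Of the 4 cathepsin inhibitor genes tested, 2 fell and 1 rose.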

How the data were processed

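Messenger RNA of 6 whole livers was sequenced, 3 per group, with 1 mouse per library per the labels, and the labels state no pooling. The deposited values were raw counts of reads per Ensembl gene, made by the authors. The submitters' processing notes name the build GRCm38.p6, featureCounts 1.5.0-p3, HISAT2 2.0.5 and StringTie 1.3.3b. Strand setting, annotation release and handling of multi-mapping reads are not given in the sources used here. Library totals were 18428224 to 24042917 counts, so 3 counts correspond to 0.125 to 0.163 CPM. Every pair of replicates differed by more than sampling noise (chi-square per degree of freedom 24.5 to 74.4).

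Symbols and coordinates came from GENCODE M21, in which 54495 of 54532 identifiers matched, and 1 marker symbol (Tf) was not matched. After filterByExpr by group and TMM scaling, edgeR 4.0.16 (R 4.3.3, glmQLFTest) gave a p for each gene, adjusted over all 14758 genes by the Benjamini-Hochberg method. The SE of a log2 fold change was obtained by dividing its absolute value by the square root of F. The log2 CPM means used a prior count of 2, and TPM values used merged exon lengths without TMM. DESeq2 1.42.0, limma-voom (limma 3.58.1), RLE size factors, library totals, other filters, the replicate number as a block and leaving out each liver were alternatives. On simulated counts for this comparison (5 draws, 14429 to 14470 genes, 200 changed) the share of changed genes called was 6.87% at 1.5-fold, 49.3% at 2-fold and 86.1% at 4-fold. Far fewer genes were changed there than passed in the data, where 25.0% did, so the adjusted threshold was stricter on the simulated counts. These shares therefore do not give the share of true differences found in the livers.

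The 31 genes, the lists and the comparison were chosen with earlier results of these data known. Named were all 31, Cd44, Lyz2, defining markers and up to 4 genes per pathway list that passed, by smallest p, or 2 where none passed. Others that complete a count, and Spi1, Pltp and Fdft1, were chosen after their values were seen. Markers of other lists (lipid-associated macrophages, monocytes, dendritic, T, NK, B, stellate and biliary cells) were computed and are summarised at the end. Figures were drawn with matplotlib 3.10.9.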

Additional observations from a re-analysis of the deposited data

How the results depend on the processing

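With 3 livers per group, small differences could pass only where the spread was small. Ctss, Lgmn and Laptm5 passed in all 14 alternatives. Of 434 pairs of gene and alternative, 380 kept direction and side of the threshold, 22 passed only in the alternative, 20 no longer passed and 12 changed sign.

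Scaling by library totals gave 3698 lower and 904 higher of all genes, 12 lower and 0 higher of the 31 (median -0.35), 3 lower of the macrophage-enriched cathepsins (median -0.53), 5 lower and 0 higher of the general enzymes (median -0.33) and 30 lower and 3 higher of the pathway genes (median -0.24). It turned Ctsa (-0.02), Ctsf (-0.02), Hexa (-0.18), Neu1 (-0.03), Smpd1 (-0.24) and Grn (-0.03) below 0. Macrophage-enriched cathepsins numbered 2 lower with no filter, with at least 50 counts in 3 libraries, with the replicate block, by DESeq2, by limma-voom and at an adjusted p under 0.1, and 1 higher by RLE size factors, DESeq2, limma-voom and at 0.1. Of the 31, 1 was higher with no filter and with the replicate block, and 4 at 0.1. General enzymes had 0 higher with no filter and with the block. At an adjusted p under 0.01 the counts were 791 lower and 724 higher of all genes, 3 lower and 0 higher of the 31, 1 lower and 0 higher of the general enzymes and 4 higher of the pathway genes. With Ctss, Ctsk and Ctsc alone, and Ctsh and Ctsz moved to the general enzymes, the cathepsin difference was -0.85.

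Leaving out 1 liver gave 1183 to 1837 lower and 1086 to 1576 higher of all genes, 3 to 5 lower and 0 to 3 higher of the 31, 1 to 2 lower and a median of -0.33 to -0.12 for the macrophage-enriched cathepsins, 1 to 2 lower and 0 to 1 higher of the general enzymes and 9 to 17 higher of the pathway genes. Signs changed without KO 3 for Hexa (-0.03, range over these fits up to 0.19), without WT 3 for Glb1 (0.07, range from -0.29), without KO 2 or WT 1 for Lipa (0.02 and 0.01, range from -0.15), and without WT 2 for Smpd1 (-0.08, range up to 0.12) and Laptm4a (0.00, range from -0.07). Where calls changed, the cause was not tested. Livers with the same replicate number showed no shared deviation from their group means (correlations of -0.027, 0.044 and -0.018), which does not show whether the animals were paired. With the replicate number as a block 1648 genes were lower and 1438 higher, and 6 of the 31 lower. In that fit Gaa (adjusted p = 0.0535) and Tfe3 (0.0524) did not pass, and Ctsk (0.0475) and Cd68 (0.0366) did.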

Other observations

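Lists of other immune and liver cell markers were also counted in KO against WT livers. Of the markers of lipid-associated macrophages 6 of 10 fell, with a median log2 fold change of -1.53, and of those of monocytes 8 of 10 fell, with a median of -2.08. Summed monocyte markers were not lower, at 2122, 2434 and 1879 CPM in KO livers, against 1864, 1282 and 1977 CPM in WT livers. In that list 1 gene had a log2 fold change above 0, at 0.36. Among dendritic cell markers 2 of 8 tested fell, among T and NK cell markers 1 of 5 and among B and plasma cell markers 1 of 4. Of the stellate cell markers 3 of 9 fell and 1 rose, and of the biliary (cholangiocyte) markers 1 of 6 fell. Of 10 endothelial markers 0 passed by edgeR, with 2 lower at an unadjusted p under 0.05 and 1 lower by DESeq2 and by limma-voom.

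Exons of several lysosomal genes overlap a neighbour in the annotation besides those given above: Hexa overlaps Tmem202 over 12.8% of its exon bases, Lamp1 overlaps Grtp1 over 9.3%, Ctsa overlaps Neurl2 over 6.9% and Glb1 overlaps Tmppe over 5.5%, so their counts are uncertain to that extent.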
